A study of Mus musculus with 3 samples.

Results

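The genes described here encode the mitochondrial respiratory chain and ATP synthase. They comprise every row of the deposited gene list whose symbol starts with mt-, together with the nuclear symbols of the Ndufa, Ndufb, Ndufc, Ndufs, Ndufv, Uqcr, Cox4 to Cox8 and Atp5 series. The rule took 94 of 32285 genes, of which 13 lie on the mitochondrial genome and 81 in the nucleus. By complex, the nuclear members comprised 36 genes of complex I, 8 of complex III, 20 of complex IV and 17 of complex V. Ndufa4 and Ndufa4l2 were placed in complex IV, where the Ndufa4 protein is known to reside. Complex II, which has no mitochondrially encoded subunit, lay outside the rule.

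The samples were organoids, small 3-dimensional cultures grown from cells of the submandibular salivary gland of C57BL/6 mice aged 8-12 weeks. All 3 groups were grown from 4 animals in Matrigel in WRY medium, which contained EGF, FGF2, insulin, dexamethasone, Y27632 (a ROCK inhibitor) and conditioned media supplying Wnt3a and R-spondin1. The control group was not irradiated. The photon group received 7 Gy of photons and the proton group 7 Gy of protons (plateau), both at day 5, and all groups were collected at day 11. Propidium iodide-negative cells were sorted and captured with a droplet kit that counts unique molecular identifiers (UMIs) near the 3' ends of mRNAs. No label links a cell to its animal, so each group is 1 library and no test between groups was possible. Ratios are given with exact 95% Poisson intervals, which cover counting error only and not the variation between animals or cultures.

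Mitochondrial DNA encodes 7 subunits of complex I, which oxidises NADH, 1 of complex III, which passes electrons from ubiquinol to cytochrome c, 3 of complex IV, which reduces oxygen, and 2 of the ATP synthase, complex V. All other subunits are translated in the cytosol and imported, so each of these complexes needs both genomes. The mitochondrial mRNAs are cut from long transcripts of either strand, and most receive a short poly(A) tail, which in some mRNAs completes the stop codon.

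The control, photon and proton libraries held 13219, 15041 and 13956 cells that passed 2 bounds, 500 or more genes detected and no more than 20% of UMIs from mitochondrial genes. These cells held 39514768, 46936995 and 36692939 UMIs, with medians of 2757, 2808 and 2223 UMIs per cell. The mitochondrial bound alone removed 7, 1 and 6 cells. Of the cell barcodes, 173 were shared by 2 libraries and 0 by all 3. The sampled epithelium carried basal duct markers (7 of 7 at 5 CPM or more in each library, CPM being UMIs scaled to a library total of 1e+06) and luminal duct markers (8 of 8 in each). Of the acinar markers 2 of 7 reached 5 CPM in each library, and the list summed to 57.2, 36.0 and 46.1 CPM. The hallmark genes of fibroblasts summed to less than 1 CPM in each library. Among markers of ionocytes and striated duct, which are rich in mitochondria, Foxi1, Ascl3, Atp6v1b1 and Kit were at or below 0.304 CPM in each library. That list summed to 51.5, 78.5 and 139 CPM, nearly all from Slc12a2, a chloride cotransporter that other epithelial cells also use.

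The annotated 3' ends of 5 mitochondrial genes are shown because they include the mitochondrial members with the lowest and the highest ratios of proton to control. An annotated end need not be the end of the mRNA, near which UMIs are counted. That of mt-Atp8 lies within an mRNA shared with mt-Atp6, as described below. Sequences are from GENCODE release 21 on GRCm38, 5′ to 3′ along the mRNA, the last 30 annotated bases each, with the bases of the stop codon in capitals. mt-Nd6 (chrM:13552-14070) is the only one of the 13 read from the minus strand.
mt-Nd6: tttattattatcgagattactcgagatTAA
mt-Cytb: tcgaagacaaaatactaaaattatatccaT
mt-Co3: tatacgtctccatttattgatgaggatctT
mt-Nd4: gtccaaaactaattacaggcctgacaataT
mt-Atp8: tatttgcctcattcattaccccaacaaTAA
mt-Cytb (chrM:14145-15288), mt-Co3 (chrM:8607-9390) and mt-Nd4 (chrM:10167-11544) end in a single T of the stop codon, and the other 10 genes have a whole stop codon. mt-Atp8 (chrM:7766-7969) and mt-Atp6 (chrM:7927-8607) share 43 bases, chrM:7927-7969, here with the start codon of mt-Atp6 and the stop codon of mt-Atp8 in capitals.
mt-Atp8 and mt-Atp6: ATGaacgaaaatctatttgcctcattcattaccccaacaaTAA
These genes are known to be carried by 1 bicistronic mRNA, as are mt-Nd4l and mt-Nd4, which share 7 bases. A UMI within such a stretch cannot be given to 1 gene, so the values of mt-Atp8, mt-Atp6, mt-Nd4l and mt-Nd4 depend on how reads were divided and are uncertain. mt-Nd5 and mt-Nd6 share 14 bases on opposite strands. No source used here gives the use of strand in counting, so reads antisense to mt-Nd6 cannot be told apart from its own.

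Mitochondrially encoded mRNA made up a smaller share of UMIs in both irradiated libraries, while the nuclear share was slightly larger. The 13 mitochondrial members held 3.29% of UMIs in the control, 2.23% in the photon and 1.80% in the proton library. The photon to control ratio was 0.680 (95% interval 0.678 to 0.682) and the proton to control ratio 0.548 (0.546 to 0.549). The 81 nuclear members held 2.02%, 2.32% and 2.14%, with ratios of 1.15 (1.15 to 1.15) and 1.06 (1.06 to 1.07). Mitochondrial UMIs per nuclear UMI were therefore 1.63 in the control, 0.962 in the photon and 0.839 in the proton library. Both ratios use the same control library. Malat1 and the ribosomal protein genes also differed in this order of libraries. The sum of 4 nuclear-retained RNAs, nearly all of it Malat1, was 38568, 23457 and 16494 CPM. The others of that list did not follow the order. Neat1 was at 1264, 573 and 1213 CPM, Kcnq1ot1 at 128, 79.1 and 81.5 CPM and Meg3 at 14.8, 19.5 and 11.3 CPM. Ribosomal protein genes held 16.5%, 18.6% and 20.3% of UMIs. The part of RNA quality in these ratios was not tested.

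Depth per cell touched the size of the mitochondrial difference. In cells of 500 to 1000 UMIs the mitochondrial share was 9.22%, 7.23% and 3.07% in the control, photon and proton libraries, and the nuclear share 0.497%, 0.786% and 1.38%. These cells made up 12.8%, 5.04% and 8.73% of each library. In cells of 3000 to 5000 UMIs the mitochondrial share was 2.82%, 2.07% and 1.69%, and the nuclear share 2.11%, 2.38% and 2.20%. The order control, photon, proton of the mitochondrial share was the same in all 5 depth classes. With cells of at least 2000 UMIs alone, a bound chosen after the depth pattern was seen, the mitochondrial ratios were 0.747 for photon and 0.603 for proton. The median cell had 2.89%, 2.05% and 1.59% mitochondrial UMIs, and 1.99%, 2.27% and 2.11% nuclear ones.

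**Figure D1:**
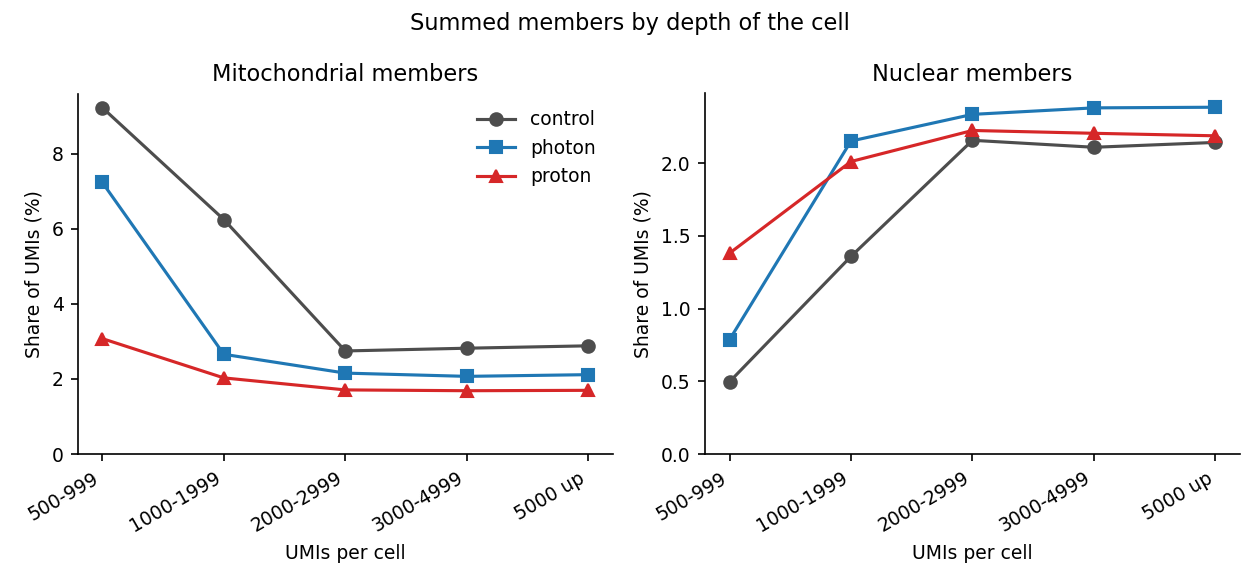
Share of UMIs (%) from the 13 mitochondrial members (left) and the 81 nuclear members (right) in cells grouped by UMIs per cell, with 1 point per library and class and no error bars, since each group is 1 library. The mitochondrial share is highest in the control at every depth, and cells under 2000 UMIs depart most from the rest.

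All 13 mitochondrial mRNAs were lower in the photon than in the control library, with ratios from 0.522 to 0.815. Of these, 6 were lower by at least 1.5-fold and 0 higher, where 8.19% of 5790 genes with a mean of at least 25 CPM were lower and 5.75% higher by this size. mt-Nd4l, a small membrane subunit of complex I, had the lowest ratio, 0.522 (0.513 to 0.531), from 828 CPM in the control to 432 CPM. mt-Nd5 and mt-Nd4, proton-pumping subunits of complex I, had ratios of 0.597 and 0.649. mt-Nd6 was at 89.4 and 53.5 CPM, a ratio of 0.599. mt-Cytb, cytochrome b, had a ratio of 0.650 and mt-Co1, the catalytic core of complex IV, 0.660. The smallest differences were those of mt-Co2 (0.798) and mt-Atp8 (0.815). In cells of 2000 UMIs or more, mt-Co1, mt-Nd4, mt-Nd6 and mt-Cytb stayed lower but by less than 1.5-fold, and mt-Nd4l and mt-Nd5 stayed past it.

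The proton library differed from the control less evenly across the mitochondrial mRNAs. Of the 13, 7 were lower and 1 higher by at least 1.5-fold, where 14.9% of 5870 genes were lower and 10.8% higher. mt-Nd6 was at 89.4, 53.5 and 15.1 CPM in the control, photon and proton libraries, and its proton to control ratio of 0.169 (0.154 to 0.185) was the lowest among members with a mean of at least 25 CPM. mt-Cytb was at 4293, 2792 and 1356 CPM, with a ratio of 0.316 (0.313 to 0.319). Its share of all mitochondrial UMIs was 13.1%, 12.5% and 7.54%. mt-Co3 was at 5118, 3412 and 2385 CPM (ratio 0.466), mt-Co1 at 9300, 6138 and 5041 CPM (0.542) and mt-Co2 at 3480, 2777 and 2034 CPM (0.584). All 3 encode core subunits of complex IV and followed the order control, photon, proton.

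Complex I mRNAs of the same genome did not all follow that order. mt-Nd1, mt-Nd2, mt-Nd4, mt-Nd4l and mt-Nd5 had proton to control ratios of 0.747, 0.733, 0.668, 0.568 and 0.697, each above its own photon to control ratio. mt-Nd3 was at 72.4, 50.4 and 74.1 CPM, a proton ratio of 1.02 (0.970 to 1.08). mt-Atp8 was at 35.4, 28.9 and 67.4 CPM, a ratio of 1.90 (1.78 to 2.03), beside 0.624 for mt-Atp6. Centred on genes of like length, with its 204 annotated bases as the length, the ratio of mt-Atp8 was 1.40. The mRNA it shares with mt-Atp6 is longer, so this centred value is uncertain. The ratio of mt-Atp6 was within 1.5-fold in the 3 alternatives that bound depth or the mitochondrial share more tightly, and reached 0.695. The genes that end in a single T, mt-Cytb, mt-Co3 and mt-Nd4, had proton ratios of 0.316, 0.466 and 0.668. mt-Nd6, with a whole stop codon and from the other strand, had 0.169. The part of the stop codon or strand in these ratios was not tested.

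**Figure D2:**
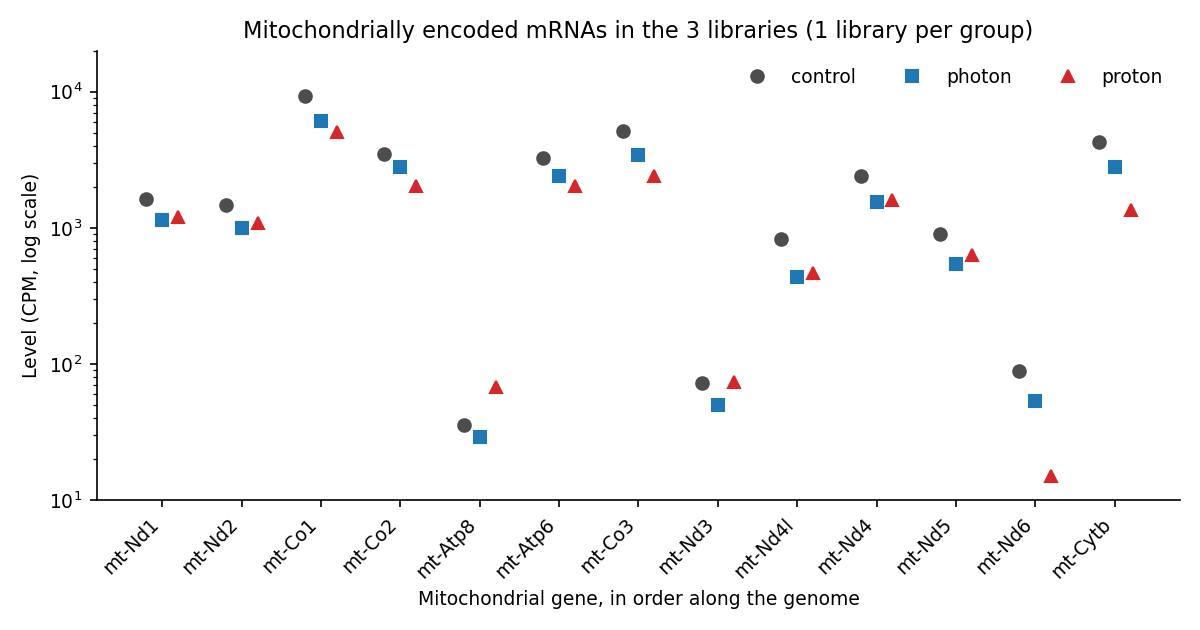
Levels of the 13 mitochondrially encoded mRNAs (CPM, log scale) in gene order along the mitochondrial genome, 1 point per library. The photon points all lie below the control, and the proton points diverge from the photon points most at mt-Atp8, mt-Nd6 and mt-Cytb.

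Because each complex joins subunits of both genomes, mitochondrial UMIs were set against nuclear UMIs within each complex. For complex I the quotient was 1.20 in the control, 0.671 in the photon and 0.786 in the proton library. For complex III, where mt-Cytb is the only mitochondrial member, it was 1.70, 1.07 and 0.556. For complex IV it was 3.04, 1.77 and 1.48, and for complex V 0.582, 0.376 and 0.339. All 4 quotients were lower in both irradiated libraries than in the control. Complex III had the lowest proton to control ratio of quotients, 0.327, and complex I the highest, 0.653. In the photon library the same ratios ranged only from 0.557 (complex I) to 0.646 (complex V). Quotients between complexes also depend on how many genes each sum holds and on transcript length, so only their change between libraries is read here.

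Nuclear members with a mean of at least 25 CPM numbered 73. The other 8 all belong to complex IV. In the photon library 62 of the 73 were above the control, where 39% of all genes were, and their median log2 ratio was 0.23 beside -0.11 for all genes. Past 1.5-fold were 3 higher and 0 lower, which is 4.11% and 0% of the members beside 5.75% and 8.19% of all genes. In the proton library 40 of the 73 were above the control, where 50% of all genes were, with a median log2 ratio of 0.05 beside 0.00. Past 1.5-fold were 9 higher and 9 lower, each 12.3% of the members, near the 10.8% and 14.9% of all genes.

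Complex I showed its extremes at accessory and catalytic subunits. Ndufa3, a small accessory subunit, was at 58.8, 85.6 and 152 CPM in the control, photon and proton libraries, with ratios of 1.46 and 2.58 (2.46 to 2.71) to control. Ndufb1-ps was at 68.4, 95.8 and 133 CPM (1.40 and 1.94). GENCODE classes it as a noncoding RNA of a bidirectional promoter, whereas RefSeq places the gene Ndufb1 at this locus. Ndufv1, the subunit that binds NADH, was at 61.3, 64.0 and 36.6 CPM, with ratios of 1.04 and 0.596 (0.557 to 0.638). Ndufs1, the large iron-sulfur subunit of the same arm, was at 56.2, 46.9 and 37.1 CPM, with ratios of 0.835 and 0.661. Ndufb3, an accessory subunit of the membrane arm, had ratios of 1.05 and 0.630. Over the 36 nuclear genes of complex I the median log2 ratio was 0.23 for photon and 0.01 for proton.

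In complex III, Uqcrfs1 and Uqcrq lay at opposite ends. Uqcrfs1 encodes the Rieske iron-sulfur protein and was at 192, 193 and 105 CPM, with ratios of 1.01 and 0.549 (0.528 to 0.571). Uqcrh, the hinge protein, was at 832, 686 and 544 CPM, with ratios of 0.825 and 0.653. Its proton ratio was within 1.5-fold under 3 of the 12 alternatives, where it reached 0.724 as a mean over cells. Uqcrq, a small subunit near cytochrome b, was at 293, 392 and 476 CPM, with ratios of 1.34 and 1.63 (1.59 to 1.66). The remaining 5 nuclear members had proton ratios between 0.735 (Uqcrc2) and 1.495 (Uqcr10).

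Complex IV held members past 1.5-fold in both comparisons. Ndufa4 was at 529, 852 and 843 CPM, with similar ratios in both irradiated libraries, 1.61 (1.58 to 1.64) and 1.59 (1.57 to 1.62). Cox5b, a zinc-binding subunit, was at 186, 291 and 258 CPM (1.57 and 1.39). Its reads may be shared with an annotated near-identical copy, Gm11273. Cox6a1 was at 132, 170 and 236 CPM (1.28 and 1.78) and Cox7c at 439, 569 and 688 CPM (1.29 and 1.57). Cox7a2l was at 338, 284 and 189 CPM, with ratios of 0.842 and 0.559 (0.543 to 0.576). Cox4i1, an early-assembling subunit, was at 1180, 1212 and 787 CPM (1.03 and 0.667).

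Complex IV also has subunits with tissue-restricted forms, and these organoids carried mainly the widely expressed ones. Cox7b2, Cox8b and Cox8c had 0 UMIs in every library, which allows at most 0.0759, 0.0639 and 0.0818 CPM. Cox6a2 and Cox7a1, forms known from heart and skeletal muscle, and Cox4i2, known from lung, were each at or below 0.886 CPM. Their widely expressed partners Cox8a, Cox6a1, Cox7a2 and Cox4i1 were at 132 CPM or more in each library. Cox6b2, known from testis, was at 6.05, 20.2 and 19.7 CPM, with ratios of 3.34 (2.90 to 3.87) and 3.25 (2.81 to 3.78). Its partner Cox6b1 was at 417, 523 and 565 CPM (1.26 and 1.36). Across the marker gates described below, the ratio of Cox6b2 ranged from 0.773 to 3.80 for photon and from 0.522 to 3.98 for proton, so its direction was not shared by all gates. Ndufa4l2, known from hypoxic cells, was at 9.95, 12.3 and 6.92 CPM.

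In complex V, 3 of the 17 nuclear members were higher and 2 lower by at least 1.5-fold in the proton library. Of all genes, 10.8% were higher and 14.9% lower by this size. The other 12 members lay between these bounds. Atp5e, the epsilon subunit of the rotor, was at 347, 450 and 840 CPM, with ratios of 1.29 and 2.42 (2.37 to 2.47). Atp5k, the e subunit of the membrane part, was at 34.8, 56.4 and 75.2 CPM, with ratios of 1.62 (1.52 to 1.73) and 2.16 (2.02 to 2.31). Atp5mpl, a small proteolipid, was at 182, 218 and 305 CPM (1.20 and 1.67). Atp5h and Atp5f1, which encode subunits d and b of the stalk, had photon ratios of 0.993 and 1.03 and proton ratios of 0.620 and 0.641. The catalytic Atp5b was at 289, 350 and 291 CPM, a proton ratio of 1.01 (0.979 to 1.03), and the other catalytic-head subunit Atp5a1 had proton ratio 0.713.

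**Figure D3:**
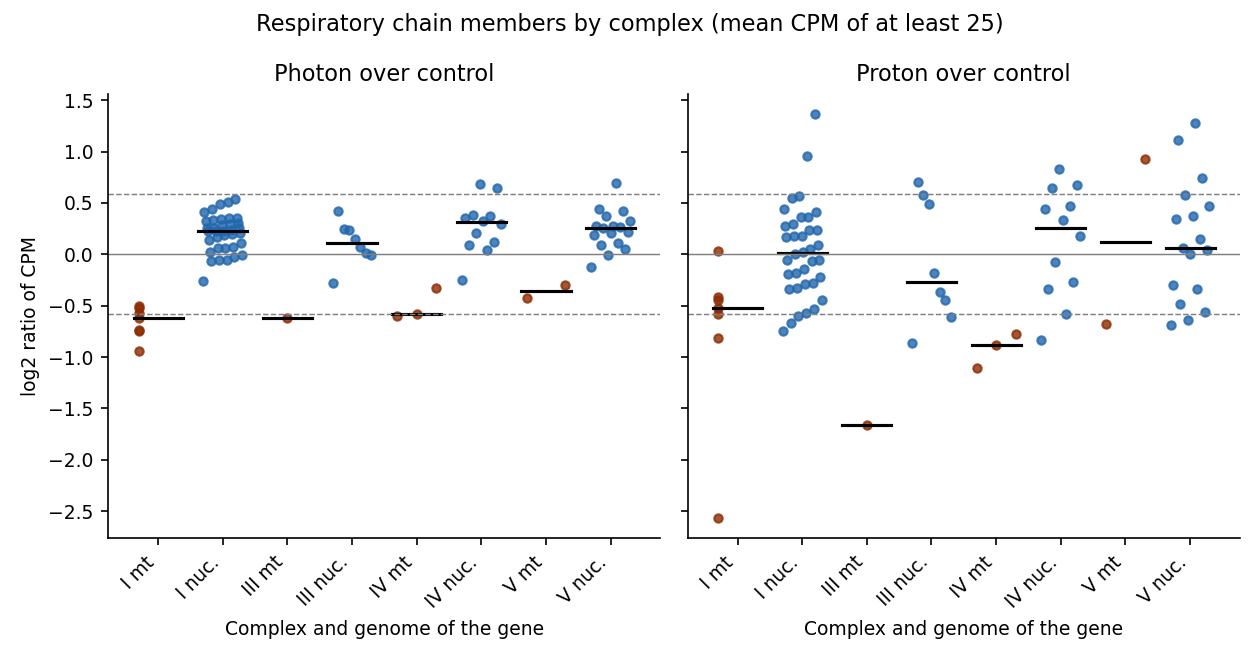
Log2 ratios of CPM to control for members with a mean of at least 25 CPM, by complex and genome (mt, mitochondrial; nuc., nuclear), with black bars at the median and dashed lines at 1.5-fold. Photon over control (left) places 62 of the 73 nuclear genes above 0, over a range of -0.28 to 0.70. Proton over control (right) spreads the nuclear genes from -0.87 to 1.37.

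Transcript length varied together with the ratios of nuclear members. Their median length was 732 bases (range 321.5 to 2675.5), where other genes of the same level had medians of 2700.5 and 2808 bases. Across the 73 members, Spearman's rho between length and log2 ratio was -0.38 for photon and -0.51 for proton. With each gene's longest transcript in place of the median it was -0.22 and -0.35. Across other genes with the median length it was -0.45 for photon and 0.31 for proton. Genes are not independent replicates and share library and depth, so these values are descriptions. Within the class under 600 bases the median log2 ratio for proton was 0.41 in members and 0.31 in other genes, and 29.6% of members and 29.0% of other genes were at least 1.5-fold higher. This class held 8 of the 9 higher members; the other was Ndufb1-ps. From 800 to 1500 bases the proton medians were -0.18 in members and -0.29 in other genes. At 1500 bases and above they were -0.45 in 12 members and 0.05 in other genes. After centring within classes of length, an alternative added after this pattern was seen, the median log2 ratio of the nuclear members was 0.04 in both comparisons, and that of the mitochondrial members -0.74 for photon and -0.59 for proton. For mitochondrial members the length is that of the annotated gene, which is shorter than the shared mRNAs of mt-Atp8 and mt-Nd4l. Past 1.5-fold after centring were 0 higher and 1 lower nuclear members for photon, and 8 higher and 3 lower for proton. The share of all genes after the same centring is not given here, so these counts have no background to be read against. Ndufa3, Ndufb1-ps, Atp5e, Atp5k and Cox6a1 stayed past 1.5-fold in proton under all 12 alternatives run, this one included. Ndufa4, Uqcrq, Atp5mpl and Cox7c were below it after centring, with centred log2 ratios from 0.23 (Ndufa4) to 0.47 (Uqcrq). Of the lower members, Uqcrfs1, Ndufs1, Ndufb3 and Cox7a2l came to centred log2 ratios of -0.56, -0.54, -0.54 and -0.53, just short of 1.5-fold, and Ndufv1, Cox4i1 and Atp5f1 to -0.46, -0.45 and -0.36. Uqcrh and Atp5h stayed past it after centring. Cox5b, Atp5j2 and Atp5g1 (0.60, 0.60 and 0.63) and Uqcrb (-0.59) were past 1.5-fold in proton after centring and within it before. Cox4i1, at a ratio of 0.667 close to the bound, passed it under 6 of the 12. The part of length in the differences between libraries was not tested.

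**Figure D4:**
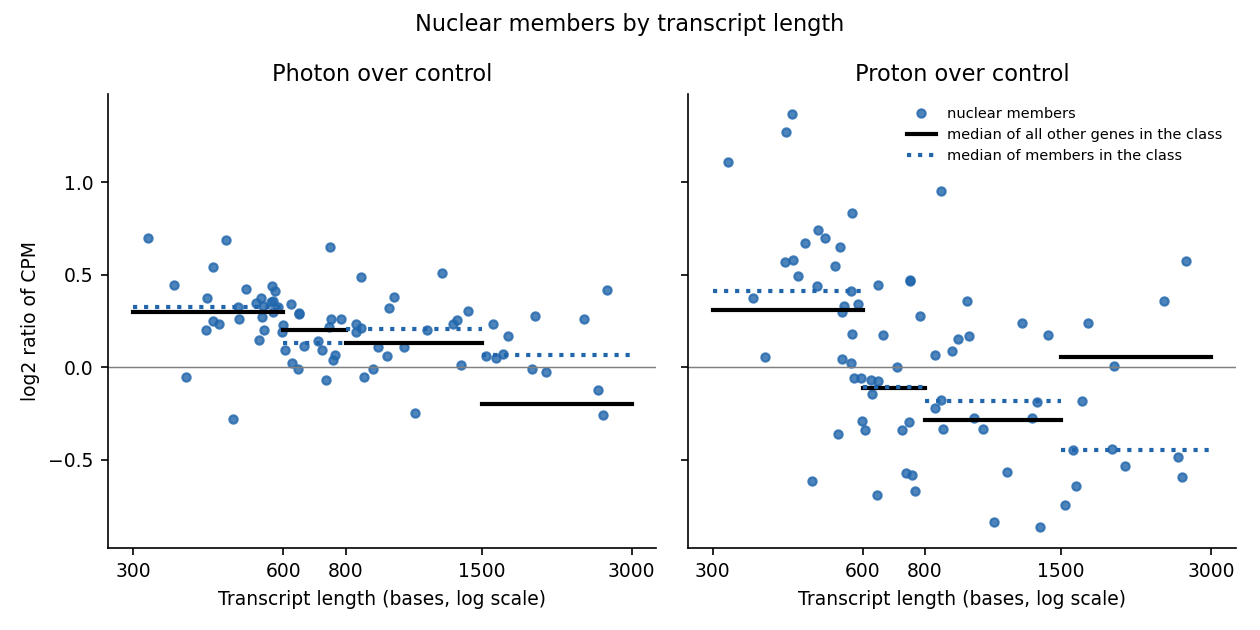
Log2 ratio of CPM to control against transcript length (bases, log scale) for the 73 nuclear members, each a point. Black lines are the medians of all other genes and dotted lines those of the members in 4 length classes, and the proton panel shows the steeper fall of members with length.

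Short promoters of some members hold sites for factors known to regulate respiratory genes. RefSeq promoters on GRCm38.p6 matched 66 of the 81 nuclear members, each from 250 bases before to 50 after the start. The ETS-type CCGGAAG (or CTTCCGG on the other strand) occurred in 21.2% of member promoters and 9.12% of 27025 promoters. The NRF1-type GCATGCG (or CGCATGC) occurred in 13.6% and 3.64%, and the YY1-type ATGGCGG (or CCGCCAT) in 13.6% and 4.19%. Of the 7 members that were higher in proton and matched, 3 held the ETS and 2 the NRF1 letters, and of the 7 that were lower, 2 and 0. A match is a description of letters and not of factor binding. Atp5k and Cox6a1, both higher, hold NRF1 and ETS letters together, and Atp5h, which was lower, holds the ETS letters. These promoters are shown with the matched letters in capitals, 5′ to 3′ in the direction of the gene. In Atp5k and Cox6a1 the NRF1 letters read the same on both strands and so match once on each. The regions are chr5:108434350-108434649 (minus strand), chr5:115348909-115349208 (minus strand) and chr11:115419870-115420169 (minus strand).
Atp5k: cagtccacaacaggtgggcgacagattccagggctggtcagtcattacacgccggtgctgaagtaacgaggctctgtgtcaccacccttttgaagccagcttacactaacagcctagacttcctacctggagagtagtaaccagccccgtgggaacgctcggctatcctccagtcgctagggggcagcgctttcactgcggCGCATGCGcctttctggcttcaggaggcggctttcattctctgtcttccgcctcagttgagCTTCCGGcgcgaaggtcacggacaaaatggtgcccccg
Cox6a1: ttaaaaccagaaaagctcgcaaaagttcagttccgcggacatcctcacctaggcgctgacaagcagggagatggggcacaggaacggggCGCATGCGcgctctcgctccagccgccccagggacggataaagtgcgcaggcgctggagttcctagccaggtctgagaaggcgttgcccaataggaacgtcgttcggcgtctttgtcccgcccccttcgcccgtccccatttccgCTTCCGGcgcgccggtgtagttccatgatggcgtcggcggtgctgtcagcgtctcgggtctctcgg
Atp5h: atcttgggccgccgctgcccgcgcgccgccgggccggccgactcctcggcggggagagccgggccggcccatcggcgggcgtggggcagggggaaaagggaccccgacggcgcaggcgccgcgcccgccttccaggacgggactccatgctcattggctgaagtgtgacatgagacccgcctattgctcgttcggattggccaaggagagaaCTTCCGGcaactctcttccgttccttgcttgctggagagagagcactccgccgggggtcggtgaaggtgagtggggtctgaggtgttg

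Gates on single markers separated cells whose mitochondrial share differed less between libraries than the whole. A gate took cells with at least 2 UMIs of 1 gene, so gates overlap, favour deep cells and are not cell types. Krt14, a basal keratin, gated 8107, 9862 and 5706 cells in the control, photon and proton libraries. Cldn4, a luminal claudin, gated 1530, 1354 and 925 cells, and Krt13, a squamous keratin, 227, 373 and 216. Top2a, a marker of dividing cells, gated 97, 669 and 443 cells, and Vim, an intermediate filament gene, 61, 599 and 260. Of the control Top2a and Vim cells, 94.8% and 98.4% were also in the Krt14 gate. The median depth of gated cells ran from 3122 to 6311 UMIs in the control, from 3300 to 4951 in the photon and from 2982.5 to 4472 in the proton library. The other basal duct markers summed to 1.46, 1.60 and 1.46 times their level in cells without Krt14 UMIs, and the other cycling markers to 124, 12.9 and 13.4 times that in cells without Top2a UMIs.

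The mitochondrial share was lower in both irradiated libraries than in the control in all 5 gates. In the Krt14 gate it was 2.78%, 2.02% and 1.73%, with ratios of 0.725 (0.723 to 0.727) and 0.622 (0.619 to 0.624). In the Cldn4 gate it was 2.85%, 2.42% and 1.79% (0.850 and 0.629), and in the Krt13 gate 2.44%, 1.964% and 1.64% (0.806 and 0.675). In the Top2a gate it was 2.66%, 1.90% and 1.83% (0.714 and 0.688). In the Vim gate it was 2.64%, 1.92% and 2.00% (0.728 and 0.756), where proton was above photon by a ratio of 1.04 (1.02 to 1.05). With at least 1 UMI of Vim this turned to 0.965 (0.956 to 0.974). The control values of the Top2a and Vim gates rest on few cells. In cells with 0 Krt14 UMIs the mitochondrial share was 5.06%, 3.10% and 1.91%, with ratios of 0.613 and 0.378. Their median depths were 1237, 1881 and 1690.5 UMIs. Cells with 0 UMIs of Cldn4, Krt13 or Top2a had photon ratios of 0.622, 0.676 and 0.691 and proton ratios of 0.514, 0.542 and 0.543. With each cell thinned to 2000 UMIs before gating, the Krt14 ratios were 0.718 and 0.617, and the control Top2a and Vim gates held fewer than 50 cells, which gave no value.

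The nuclear share differed less. Its photon to control ratios were 1.12, 1.09, 1.20, 1.06 and 1.07 in the Krt14, Cldn4, Krt13, Top2a and Vim gates, and its proton to control ratios 1.07, 1.01, 1.26, 0.974 and 0.996. Of the 73 nuclear members, those above the control in the photon library numbered 59 in the Krt14 gate (37.7% of all genes), 57 in the Cldn4 gate (43.5%), 64 in the Krt13 gate (44.1%), 52 in the Top2a gate (38.6%) and 49 in the Vim gate (41.8%). For proton the counts were 39 (47% of all genes), 32 (55.2%), 51 (49.1%), 30 (50.6%) and 33 (49.6%) in the same order. The nuclear members were thus above the control more often than all genes in each photon gate, and in the proton gates of Krt14 and Krt13 but not in the other 3.

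Members were also compared gate by gate. The proton to control ratio of mt-Nd6 lay between 0.172 and 0.263 over the 5 gates, and that of mt-Cytb between 0.364 and 0.461. mt-Atp8 lay between 1.74 and 2.39, Ndufa3 between 2.12 and 3.06, Atp5e between 2.07 and 2.73, Uqcrfs1 between 0.455 and 0.629 and Cox7a2l between 0.527 and 0.693. Ndufa4 ran from 1.08 to 1.83, so its difference was not of 1.5-fold in every gate. Counts below run in the order Krt14, Cldn4, Krt13, Top2a and Vim. For proton, 9, 7, 9, 6 and 7 of the 9 higher nuclear members stayed past 1.5-fold. Of the 9 lower nuclear members 9, 7, 2, 6 and 6 did, and of the 7 lower mitochondrial members 4, 6, 4, 3 and 3. For photon, 3, 1, 2, 0 and 0 of the 3 higher nuclear members did. Of the 6 lower mitochondrial members 2, 1, 3, 2 and 3 did. All kept their direction except Atp5f1 for proton in the Krt13 gate (1.005). In complex III the quotient of mitochondrial to nuclear UMIs had proton to control ratios between 0.387 (Cldn4) and 0.414 (Krt13), whereas in complex I they ran from 0.671 (Krt13) to 1.02 (Vim).

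**Figure D5:**
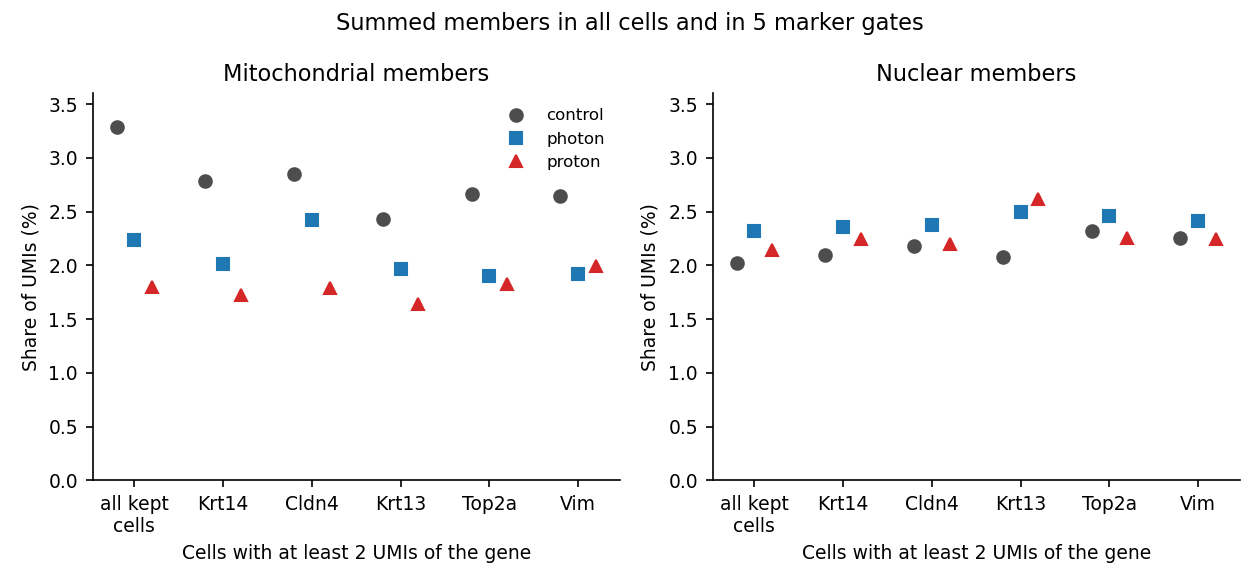
Share of UMIs (%) from mitochondrial (left) and nuclear (right) members in all kept cells and in cells with at least 2 UMIs of each of 5 marker genes, 1 point per library. The control is highest for the mitochondrial members in every gate, while the nuclear points lie between 2.02% and 2.62%.

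Genes that serve the chain without being its members were counted by list at a mean of at least 25 CPM, beside the shares of all genes given above, 5.75% higher and 8.19% lower for photon and 10.8% and 14.9% for proton. The 4 subunits of complex II, succinate dehydrogenase, had 0 members past 1.5-fold in either comparison, with median log2 ratios of -0.04 and -0.13. Centred within classes of transcript length, these medians were -0.07 and 0.08. In the list of cytochrome c and coenzyme Q genes, 1 of 7 was higher and 1 lower for photon and 1 of 6 higher and 2 lower for proton (medians 0.14 and -0.06). Centred by length, the medians of this list were 0.18 and 0.22. Cycs, cytochrome c itself, was at 31.6, 51.0 and 48.2 CPM (1.61 and 1.52). Pdss2, which makes the side chain of coenzyme Q, had a photon ratio of 0.652. Coq7, a hydroxylase of coenzyme Q synthesis, was at 39.9 CPM in the control and 44.1 CPM in the photon library, and had a proton ratio of 0.326 (0.293 to 0.361). Coq10b, which binds coenzyme Q, had a proton ratio of 0.507.

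Assembly factors and accessory genes were counted in the same way. Of the complex I accessory genes outside the symbol rule, 0 of 6 were past 1.5-fold for photon, and 0 were higher and 2 lower for proton, Tmem126a (0.503) and Ndufaf4 (0.648), with medians of 0.13 and -0.27. Of the assembly factors of complexes III, IV and V, 1 of 18 was higher and 0 lower for photon, Higd1a (1.52), and 2 of 17 were higher and 0 lower for proton, Uqcc2 (1.80) and Pet100 (1.63). The medians of that list were 0.16 and -0.09. Centred by length, the medians were 0.04 and -0.20 for the accessory genes and -0.03 and -0.03 for the assembly factors.

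Genes for mitochondrial DNA and RNA handling are the ones that act on the 13 mitochondrial mRNAs. Of the genes for DNA upkeep and transcription, 0 of 5 were higher and 1 lower in each comparison (medians -0.07 and -0.28), Mterf3 for photon (0.608) and Tfam for proton. Tfam, which packages mitochondrial DNA and starts its transcription, was at 54.7, 52.1 and 25.8 CPM, a proton ratio of 0.471 (0.436 to 0.509). Of the genes for RNA processing and decay, 2 of 9 were higher and 0 lower for photon and 2 of 10 higher and 1 lower for proton (medians -0.04 and 0.13). Centred by length, the medians were -0.18 and -0.05 for DNA upkeep and transcription and 0.08 and 0.105 for RNA processing and decay. Slirp, which stabilises mitochondrial mRNAs, was at 46.9, 93.5 and 105 CPM, with ratios of 1.99 and 2.24. Pnpt1, a mitochondrial ribonuclease subunit, had ratios of 1.64 and 1.84. Trmt10c, part of the enzyme that cuts the 5' ends of mitochondrial tRNAs, was at 43.5, 35.2 and 16.6 CPM (proton ratio 0.382).

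Of the nuclear regulators of respiratory genes, 0 of 9 were higher and 1 lower for photon and 1 higher and 2 lower for proton (medians -0.28 and -0.02). Centred by length, their medians were -0.10 and -0.12. Myc was at 108, 67.7 and 60.3 CPM (0.628 and 0.559), Nfe2l2, a factor of the oxidative stress response, had a proton ratio of 0.638, and Sp1, a general activator, was at 41.6, 37.8 and 75.3 CPM (proton ratio 1.81). Of the mitochondrial ribosomal proteins, 5 of 70 were higher and 0 lower for photon, led by Mrps25 (1.65) and Mrpl30 (1.58), and 3 of 69 higher and 6 lower for proton, led by Mrps31 (0.510) and Mrpl52 (1.82). The share higher in photon was near that of all genes, and both proton shares were below it. Of the citric acid cycle genes, 0 of 13 were past 1.5-fold for photon, and 0 of 12 were higher and 4 lower for proton, Suclg1 (0.505), Sucla2 (0.564), Idh3a (0.573) and Idh3b (0.611).

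Read directly against each other, the irradiated libraries differed most in mt-Nd6, mt-Atp8 and mt-Cytb, with proton to photon ratios of 0.282, 2.33 and 0.486. The proton to photon ratio of the mitochondrial sum was 0.805 (0.803 to 0.808) and of the nuclear sum 0.923 (0.920 to 0.926). Of the nuclear members, 2 were higher and 10 lower by at least 1.5-fold in proton, where 22.7% and 16.3% of 5814 genes were. Of the mitochondrial members 1 was higher and 2 lower. The mitochondrial quotient of complex III was 0.522 of its photon value, and that of complex I 1.17 of it.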

How the data were processed

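The deposited matrices hold UMI counts per gene and cell barcode, made with Cell Ranger 7.0.1 on build mm10 per the submitters' processing notes. The matrix header names version 7.0.0. The sources used here give neither annotation nor intron handling. Cells with at least 500 genes and at most 20% mitochondrial UMIs were kept, no doublet caller was run, and counts were summed per library and divided by the total (CPM). A member counted as different from 1.5-fold upward at a mean of at least 25 CPM. Lengths are medians over the basic GENCODE release 21 protein-coding transcripts of a gene, or over all its basic transcripts where none is protein-coding, as for Ndufb1-ps. Intervals were checked only on counts simulated with independent Poisson error. That leaves out any clustering of UMIs by cell or culture, so the check cannot show their coverage on these data. The named genes are all mitochondrial members, nuclear members past 1.5-fold, the highest and lowest per complex, the tissue forms and list genes past 1.5-fold, up to 4 per list with the largest ratios. Members and lists were chosen with earlier results of these data known. Near-identical annotated copies exist for 31 of 94 members. Analyses used Python 3.11.15 with numpy 2.4.6 and scipy 1.17.1.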

Additional observations from a re-analysis of the deposited data

How the results depend on the processing

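Values here are log2 ratios of the summed members to control. The mitochondrial sums stayed below 0 under every alternative run, and the nuclear sums stayed above 0 except under 1. Before any alternative, the mitochondrial photon, nuclear photon, mitochondrial proton and nuclear proton values, in this order, were -0.557, 0.203, -0.869 and 0.0878. With an upper bound of 10% on the mitochondrial share they were -0.458, 0.173, -0.751 and 0.0535. In cells of 2000 to 5000 UMIs they were -0.410, 0.152, -0.718 and 0.0567, and in cells of at least 2000 UMIs, a bound chosen after seeing the data, -0.420, 0.153, -0.731 and 0.0496. Without the 5% of cells with the most UMIs they were -0.577, 0.210, -0.883 and 0.0974. With mitochondrial and ribosomal protein genes left out of the total they were -0.537, 0.222, -0.826 and 0.131. As means over cells they were -0.735, 0.311, -1.10 and 0.200, and with the mixture of marker strata held equal -0.606, 0.231, -1.04 and 0.146. With all barcodes the last 3 were 0.210, -0.892 and 0.104. Scaling by the median of gene ratios gave -0.443 and 0.317 for photon. Centring by transcript length, also chosen after seeing the data, gave -0.681, -0.00310, -0.676 and 0.0342, so the nuclear photon value turned; the centring itself subtracts the median of genes of like length.

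Members past 1.5-fold numbered 9 of 86 for photon and 26 of 86 for proton. Of all genes, 5.75% were higher and 8.19% lower for photon, and 10.8% and 14.9% for proton. The photon count was 5 in cells of 2000 to 5000 UMIs, 5 in cells of at least 2000 UMIs and 16 as means over cells, and the cause was not tested. With the bound lowered to a 25% increase or its inverse the counts were 33 and 56, and at a fold of 2 they were 0 and 6. The shares of all genes under these other bounds and cell choices are not given here. The counts therefore show only how the number of members moved with the setting. Under the 12 alternatives every such member kept its direction. The photon calls of Cox5b, Atp5k and Ndufa4 were lost only under centring by length, with lowest ratios of 1.37, 1.31 and 1.30. No paired analysis was possible because each group is 1 library, and no library could be left out for the same reason.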
